A study of Mus musculus with 6 samples.

Results

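Transcripts of the extracellular matrix were followed in primary cultures of the mouse RPE (retinal pigment epithelium), the pigmented cell layer behind the retina that engulfs shed photoreceptor tips. A gene was included when its symbol named a collagen chain, a laminin chain, a hemicentin, a fibulin, a fibrillin or a nidogen, or was Fn1, Sparc, Tnc, Hspg2, Agrn, Efemp1, Efemp2, Eln or Postn. This gave 61 of the 12556 genes measured, out of 74 protein-coding genes whose RefSeq symbol fits the same names; the other 13 were not analysed here. The 61 comprised 33 collagen chains in 3 classes of 11, 13 genes of the laminin, nidogen, perlecan and agrin class, 9 elastic fibre genes, 2 hemicentins, and the 4 genes Fn1, Sparc, Tnc and Postn.

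The mice were of strain C57BL/6J and 10 to 12 days old, and all 6 cultures were used after 5 to 6 days on 0.4 µm pore supports, each well holding the RPE of about 1 eye. The 3 challenged cultures received mouse photoreceptor outer segments (POS) for 1.5 h at about 10 per RPE cell and were washed. The 3 unchallenged cultures, titled Veh, received none. The comparison asked which transcripts differed after contact with outer segments. The labels call the libraries biological replicates without saying whether they came from separate litters or days, so p-values measure the spread between these libraries.

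RPE cells rest on Bruch's membrane, whose inner face is their own basement membrane. Laminin trimers and type IV collagen form separate sheet-like networks there, which nidogens and the heparan sulfate proteoglycans perlecan (Hspg2) and agrin join. Beyond it lie collagen fibrils and an elastic layer built of elastin on fibrillin microfibrils, with fibulins as connectors. Collagen trimers are assembled inside the cell from fixed chain combinations, so the balance between partner chains is a measure of its own. Hemicentins are very long matrix proteins of repeated immunoglobulin domains, first described in Caenorhabditis elegans, where hemicentin holds neighbouring tissues together.

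The 6 libraries held 24869273 to 30420028 reads in genes, and values are normalized read counts, the authors' reads per gene divided by a library size factor. Of the RPE markers, 12 of 13 were measured, all but Best1. They summed to 37315 to 49794 normalized counts in unchallenged and 37372 to 56407 in challenged libraries, with Tyr the highest at 15831 to 26214. Rlbp1, a retinoid-binding protein gene, was at 2092 to 3386 and the visual cycle gene Rpe65 at 103 to 207 normalized counts. Of the fibroblast and pericyte markers, 11 of 11 were measured and summed to 50735 to 83105 in unchallenged and 69162 to 94921 in challenged libraries, most of it Acta2. Of the endothelial markers 3 of 7 were measured, summing to 260 to 317, and of the photoreceptor markers 1 of 10, Sag. Sag, the gene of a rod photoreceptor arrestin, was at 17.9 to 26.6 unchallenged and 578 to 987 challenged (log2 fold change 5.16, limma adjusted p = 0.00109), the only marker of these lists called. Interferon-stimulated genes, 14 of 15 measured, summed to 46770 and 63559 in unchallenged replicates 1 and 3 but 3151 in unchallenged replicate 2 and 2516 to 9927 in challenged libraries. The 10 most abundant genes took 8.23% of reads in challenged replicate 3 and 10.7% to 11% in the others. Unchallenged replicates 1 and 3 and challenged replicate 3 thus stand apart, and the main results that rest on them are given with and without them.

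One matrix gene, Hmcn2, passed the test across all genes, and it was known to be called when the matrix genes were chosen. Hmcn2 (Entrez Gene 665700) spans 31314255 to 31460738 on chromosome 2 of the mouse assembly GRCm38.p6, on the plus strand. Its RefSeq promoter window, from 250 bases before to 50 bases after the transcription start, is printed because Hmcn2 carries the only call; it lies at chr2:31314082-31314381. Capitals mark the letters TGANTCA, which read the same on both strands and are the core site of AP-1, the Fos and Jun dimer.

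Hmcn2: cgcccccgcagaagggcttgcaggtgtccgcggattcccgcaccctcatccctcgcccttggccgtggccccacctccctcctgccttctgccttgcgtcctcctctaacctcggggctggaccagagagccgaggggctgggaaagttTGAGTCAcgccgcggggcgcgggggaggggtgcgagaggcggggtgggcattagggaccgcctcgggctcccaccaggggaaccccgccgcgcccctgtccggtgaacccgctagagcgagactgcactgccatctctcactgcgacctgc

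The letters begin 101 bases before the start that the window is set on, which lies within the annotated span of the gene. Windows were found in RefSeq for 45 of the 61 matrix genes, 56 windows in all, and TGANTCA was in 3 of them, those of Hmcn2, Col6a1 and Efemp1 (5.36%). Over all 32851 windows of this length it was in 7.81%. The GC box letters GGGCGG, on either strand, were in 34 of the 56 (60.7%) and in 35.7% of all windows. Also searched were CCAAT, in 26.8% of the 56 against 37.4% of all windows, TATAAA (10.7% against 13.6%) and GGAATG (14.3% against 14.7%). Matching letters are a description and say nothing of binding.

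Hmcn2 had normalized counts of 329, 328 and 297 in unchallenged replicates 1, 2 and 3, and of 139, 151 and 145 in the challenged ones. Every challenged value lay below every unchallenged one, and the spread within each group was small beside the gap. The mean fell from 318 ± 17.9 to 145 ± 6.03 (SD, n = 3 each). On the log2 scale limma estimated this as -1.13 ± 0.10 (SE, adjusted p = 0.0278). In the authors' deposited table its log2 fold change was -0.97 (adjusted p = 4.66e-12). Across all 12556 genes, limma called 12 (0.0956%), 0.0637% higher and 0.0319% lower. The authors' deposited table called 2.55%, edgeR 0.0876% (0.0637% higher and 0.0239% lower) and DESeq2 2.73% (0.87% higher and 1.86% lower), and both tools also called Hmcn2. The direction did not depend on the libraries that stand apart: the log2 fold change was -1.13 without challenged replicate 3 and -1.17 without unchallenged replicates 1 and 3. The call depended on which library was removed, and was kept in 2 of the 6 fits with a library left out, whose adjusted p ran from 0.0226 to 0.185.

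The other hemicentin gene, Hmcn1, had 443, 806 and 546 normalized counts unchallenged and 657, 735 and 550.3 challenged. The groups overlapped (log2 fold change 0.15, 95% interval -0.37 to 0.67; limma adjusted p = 0.817). Within each library the ratio of Hmcn2 to Hmcn1 was 0.742, 0.407 and 0.545 unchallenged and 0.211, 0.205 and 0.264 challenged, without overlap. Per kb of transcript Hmcn1 was the more abundant of the pair, at 33.4 ± 10.4 against 20.3 ± 1.14 normalized counts per kb in unchallenged cultures. Exons of the antisense gene Gm20631 overlap 1.88% of Hmcn1, and no annotated exon of another gene overlaps Hmcn2.

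**Figure D1:**
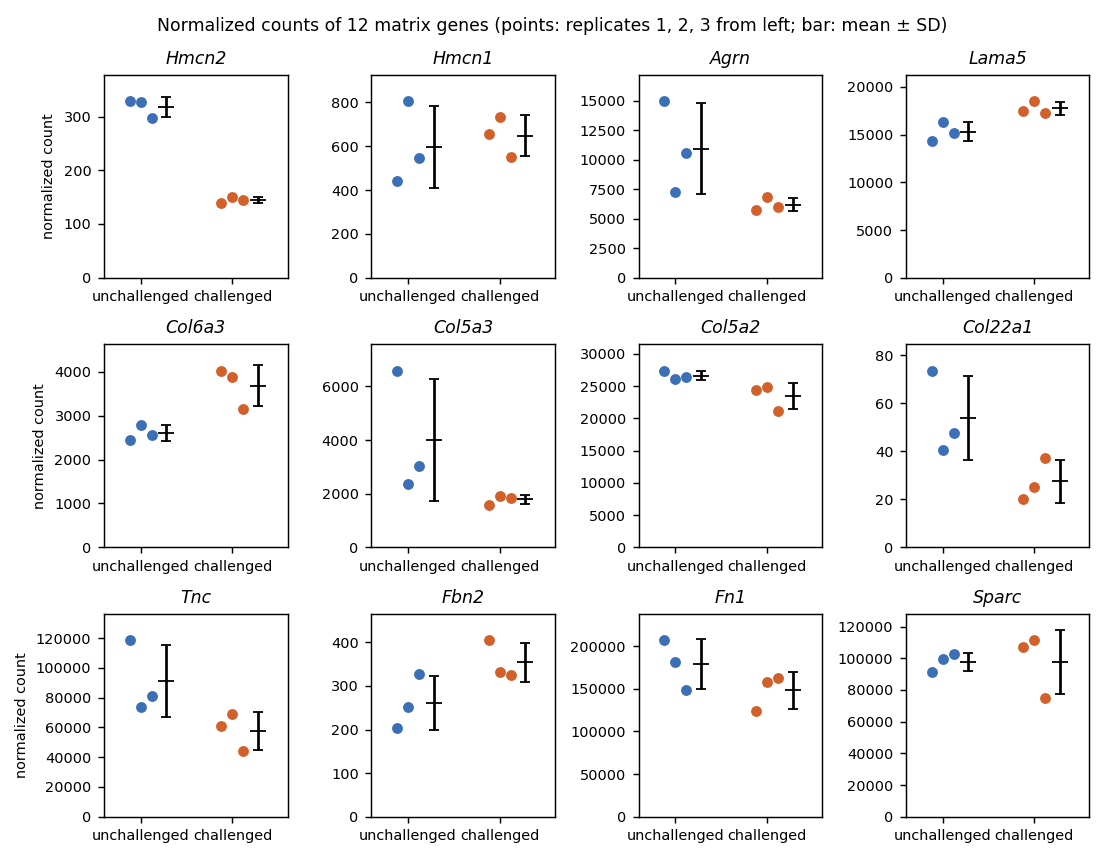
Normalized counts (y axes, from 0) of 12 matrix genes in the 3 unchallenged (blue) and 3 POS-challenged (orange) libraries, with mean ± SD as bars. Hmcn2 shows 2 tight groups at 297 to 329 and 139 to 151, while in Agrn and Col5a3 unchallenged replicate 1 is the highest point and the unchallenged bars are wide.

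Of the 61 genes, 27 had a positive and 34 a negative limma fold change, with a median of -0.06 on the log2 scale beside 0.007 over all genes. That median was 0.04 with quantile normalization and 0.12 without challenged replicate 3, so it has no stable sign. An unadjusted limma p under 0.05 was found for 3 higher and 6 lower, 14.8% of the 61 against 11.5% of all genes (4.87% higher and 6.58% lower). The groups did not overlap for 9 genes, also 14.8%, against 20% of all genes; challenged libraries were above for 2 (9.56% of all genes) and below for 7 (10.4% of all genes). Among the 59 with an adjusted p in the authors' deposited table, 1 was listed higher (0.871% of all genes) and 3 lower (1.68% of all genes), together 6.78%. Col6a3 was the higher one, and Hmcn2 and Agrn were among the lower ones. DESeq2 on the recovered reads called the same 4. For 49 of the 61 the 95% interval of the limma fold change lay within a log2 value of 1 either way. The other 12 reached past it, among them Hmcn2, whose interval was narrow, at -1.37 to -0.88.

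**Figure D2:**
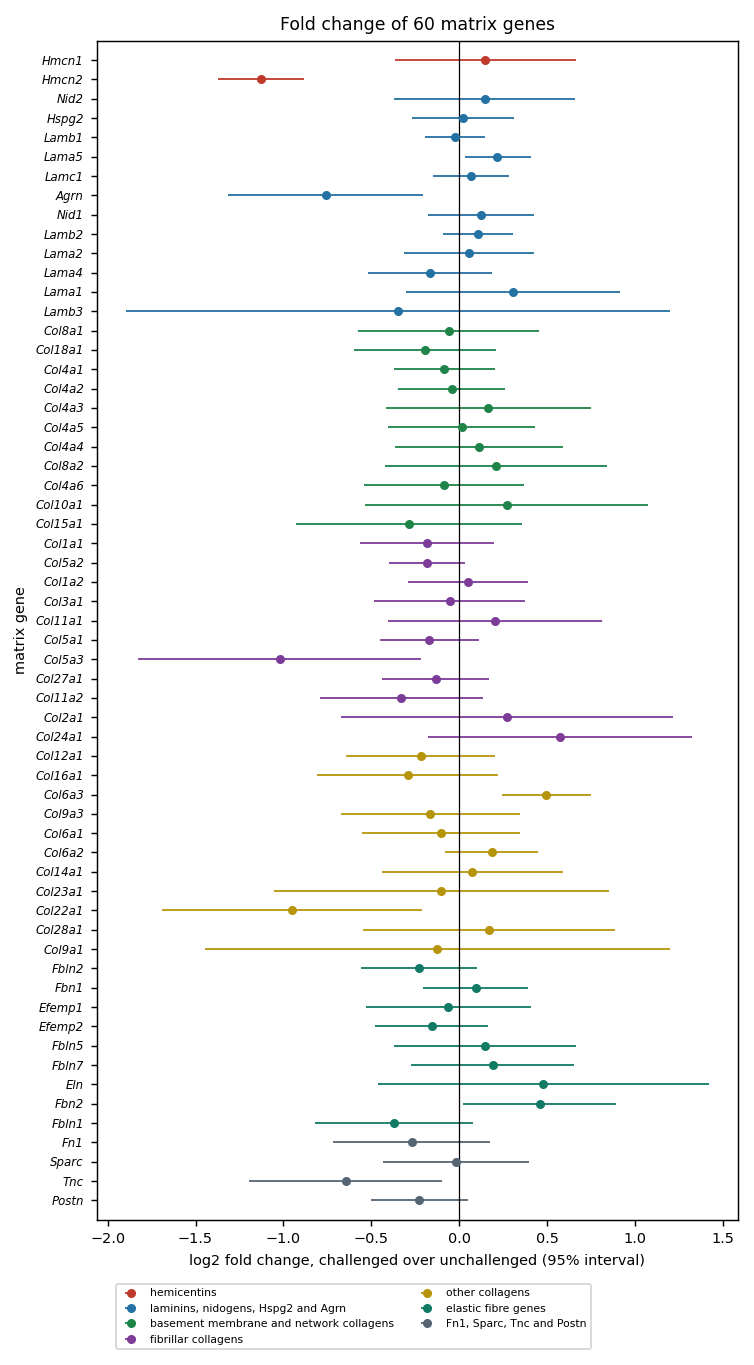
Log2 fold change of 60 matrix genes, challenged over unchallenged (x axis), with its 95% interval from limma; colours mark the 7 classes. Hmcn2, at -1.13, is the only gene past the threshold across all genes, and most intervals cross 0.

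Laminins, nidogens, perlecan and agrin, the basement membrane class, split in direction: 8 of 13 fold changes were positive and 5 negative (median 0.05). None passed across all genes in limma. Lamc1, the gene of the common laminin gamma chain, stood at 9099 to 9851 unchallenged and 8790 to 10745 challenged, with overlap (log2 fold change 0.07 ± 0.09 SE). Lamb3, a laminin beta chain gene of epithelia, was near the lower limit of the table, at 5.44 to 34.2 normalized counts, and had no adjusted p in the authors' deposited table.

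Agrn (chromosome 4, 156165290 to 156197533), the gene of agrin, a basement membrane proteoglycan best known for clustering acetylcholine receptors at the nerve-muscle junction, stood at 14977, 7304 and 10538 unchallenged and 5744, 6853 and 6014 challenged. Challenged libraries were lower without overlap, but the unchallenged ones spread widely. The log2 fold change was -0.76 ± 0.24 (SE; limma adjusted p = 0.344, and adjusted p = 0.0229 in the authors' deposited table). Unchallenged replicates 1 and 3, where Agrn was highest, are also the libraries with high interferon-stimulated genes, and their part in the difference was not tested. Without unchallenged replicate 1 the log2 fold change was -0.50, and without both it was -0.24. With each library left out in turn, the unadjusted limma p was under 0.05 in 6 of 6 fits and the adjusted p in none (0.0529 to 0.649).

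Lama5, whose alpha chain is a main component of the RPE basement membrane, stood at 14329, 16313 and 15210 unchallenged and 17499, 18523 and 17240 challenged. Every challenged value was above every unchallenged one, by a small margin (log2 fold change 0.22 ± 0.08 SE, unadjusted p = 0.0284, limma adjusted p = 0.388). The log2 fold change was 0.12 without unchallenged replicates 1 and 3. Its unadjusted limma p was under 0.05 in 2 of the 6 fits with a library left out. The most abundant members of the class by count showed no separation. Nid2, which bridges laminin and type IV collagen, ranged from 18142 to 26346 unchallenged and from 17632 to 29187 challenged; the gene Rtraf on the other strand shares 8.45% of its exonic bases, and the use of strand in counting is not stated in these sources. Hspg2 ranged from 16708 to 18922 and from 14852 to 19997, and Lamb1, a laminin beta chain, from 16098 to 17080 and from 15625 to 17050. The 95% interval for Lamb1 was narrow, from -0.20 to 0.15 on the log2 scale.

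Basement membrane and network-forming collagens, 11 genes, held no member with an unadjusted p under 0.05 and no call in the authors' deposited table; 5 fold changes were positive and 6 negative (median -0.04). Their summed normalized counts were 168206, 196195 and 202012 unchallenged and 210970, 209503 and 135704 challenged, so challenged replicate 3 was the lowest of all libraries and the other 2 challenged ones the highest. Col8a1, a chain of the lattice-forming type VIII collagen, dominated the class at 85461, 104307 and 106734 unchallenged and 112338, 109795 and 68101 challenged. Col18a1, the source of endostatin, stood at 21548, 22197 and 22235 and then 21597, 22796 and 14323. Both genes were lowest in challenged replicate 3. The scarce Col15a1, its closest relative, had the largest absolute fold change of the class and a wide interval, at 47.7 to 96.9 unchallenged and 49 to 64.8 challenged (log2 fold change -0.29, 95% interval -0.93 to 0.36).

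The 6 type IV chain genes lie in 3 head-to-head pairs, and each pair's ratio varied little between libraries. Col4a1 and Col4a2, whose products form the common trimer of basement membranes, start 21 bases apart on opposite strands of chromosome 8. The stretch that lies in both of their promoter windows is printed because it spans the starts of both genes; it is chr8:11312777-11312854, plus strand, GRCm38.p6, with the GC box letters GGGCGG in capitals.

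Col4a1 and Col4a2: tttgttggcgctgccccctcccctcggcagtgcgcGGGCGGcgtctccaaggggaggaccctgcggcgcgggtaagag

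Col4a1 stood at 20703, 20649 and 21542 unchallenged and 21370, 22031 and 16380 challenged. The ratio of Col4a1 to Col4a2 was 1.11, 1.09 and 1.07 unchallenged and 1.06, 1.04 and 1.07 challenged, without overlap but by a margin smaller than the rounding, while challenged replicate 3 was low for both genes. The exons of the pair overlap by 22 bases. Col4a3 and Col4a4, chains of the trimer known from the kidney glomerulus, overlap at their starts on chromosome 1. Col4a3 ranged from 6918 to 10878 unchallenged and from 7272 to 12636 challenged, and its ratio to Col4a4 only from 1.65 to 1.86 and from 1.75 to 1.9. Col4a5 and Col4a6, on the X chromosome with starts 1343 bases apart, had ratios of 9.38 to 11.4 and 10.6 to 11.4. Genes of a pair are measured in the same library, so a shared high or low value of the pair and a difference of the library cannot be told apart.

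**Figure D3:**
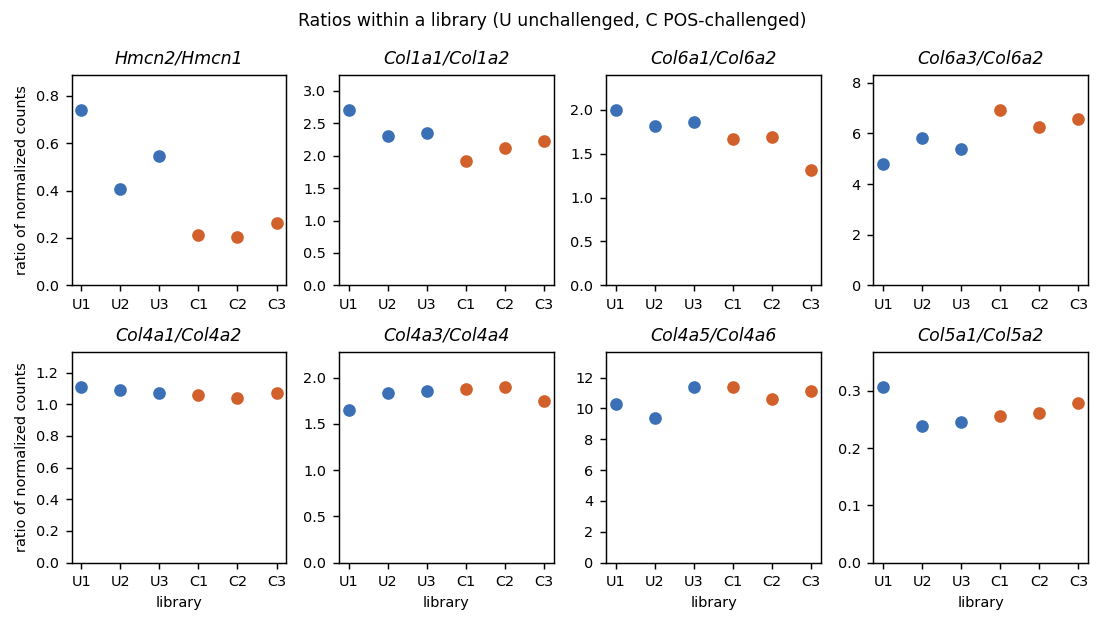
Ratio of normalized counts of 8 gene pairs within each library (y axes, from 0; U1 to U3 unchallenged in blue, C1 to C3 POS-challenged in orange). Ratios of the paired type IV chains varied little, and groups did not overlap in 5 panels: Hmcn2 to Hmcn1, Col1a1 to Col1a2, Col6a1 to Col6a2, Col6a3 to Col6a2 and, by less than the rounding of the printed values, Col4a1 to Col4a2.

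Fibrillar collagens, the chains of banded fibrils and their regulators, had 4 positive and 7 negative fold changes (median -0.14), none past the threshold in limma or in the authors' deposited table. Col1a1 stood at 50182, 35449 and 36826 unchallenged and 37551, 38693 and 30666 challenged, and its partner Col1a2 at 18501, 15399 and 15668 and then 19557, 18275 and 13817. Neither gene separated the groups, while their ratio did: Col1a1 to Col1a2 was 2.71, 2.3 and 2.35 unchallenged and 1.92, 2.12 and 2.22 challenged. Ratios of this kind were computed for 13 pairs, of which 5 did not overlap between groups: Hmcn2 to Hmcn1, Col1a1 to Col1a2, Col4a1 to Col4a2, Col6a1 to Col6a2 and Col6a3 to Col6a2. No such share was computed over other gene pairs. Of all single genes, 20% did not overlap between groups. Hmcn2 and Col6a3 separated the groups on their own, both type VI ratios share Col6a2, and Col4a1 to Col4a2 separated by less than the rounding. An exact permutation test of 3 libraries against 3, two-sided, gives at best p = 0.1, so none was run.

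Type V collagen sets the diameter of fibrils, and all 3 of its chain genes were measured. Col5a3 stood at 6593, 2356 and 3022 unchallenged and 1586, 1928 and 1831 challenged. All challenged values were lower, and unchallenged replicates 1 and 3, again those with high interferon-stimulated genes (their part was not tested), were the highest (log2 fold change -1.02 ± 0.34 SE, unadjusted p = 0.0198, limma adjusted p = 0.362). Without unchallenged replicate 1 the log2 fold change was -0.59, and without unchallenged replicates 1 and 3 it was -0.41. The unadjusted limma p was under 0.05 in 5 of the 6 fits with a library left out and the adjusted p in none (0.143 to 0.639). Col5a2 stood at 27414, 26037 and 26367 and then 24428, 24856 and 21093, also without overlap but by little (log2 fold change -0.19, limma adjusted p = 0.49). Col5a1 overlapped, at 6227 to 8417 and 5871 to 6495.

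Among the other 11 collagens, 4 fold changes were positive and 7 negative (median -0.11). Col6a3 (chromosome 1, 90766860 to 90844001), the largest chain of the beaded filaments of type VI collagen, had the smallest unadjusted p of the genes with a positive fold change (0.00221). It stood at 2451, 2794 and 2569 unchallenged and 4031, 3881 and 3149 challenged, without overlap. The log2 fold change was 0.50 ± 0.11 (SE; limma adjusted p = 0.24, and adjusted p = 0.0073 in the authors' deposited table). It was 0.61 without challenged replicate 3, the lowest challenged library, and 0.39 without unchallenged replicates 1 and 3. With each library removed in turn, the unadjusted p was under 0.05 in 6 of 6 fits and the adjusted p in none (0.0655 to 0.639).

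The chains that assemble with it did not separate: Col6a1 stood at 1024, 869.9 and 886 unchallenged and 970, 1046 and 625 challenged, and Col6a2 at 512, 480.2 and 477 and then 580, 620 and 479. The ratio of Col6a3 to Col6a2 was 4.79, 5.82 and 5.39 unchallenged and 6.94, 6.26 and 6.58 challenged. The ratio of Col6a1 to Col6a2 went the other way, at 2, 1.81 and 1.86 and then 1.67, 1.69 and 1.31. Type VI collagen is also made by fibroblasts, and none of the 11 fibroblast and pericyte markers was called in limma (median log2 fold change 0.20). Pdgfra, Pdgfrb and Cspg4 had positive fold changes at an unadjusted p of 0.00406, 0.00207 and 0.019 (limma adjusted p = 0.252, 0.24 and 0.359), while those of Dcn, Twist2 and Prrx1 were negative, at -0.98, -0.63 and -0.27 on the log2 scale. Their part in the Col6a3 difference was not tested. In these bulk libraries fewer cells of a type and less RNA per cell cannot be told apart.

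Col22a1, a collagen of tissue junctions such as that of muscle and tendon, was scarce and lower in every challenged library, at 73.7, 40.5 and 47.7 unchallenged and 20, 25 and 37.3 challenged (log2 fold change -0.95 ± 0.31 SE, limma adjusted p = 0.358). Without unchallenged replicates 1 and 3 the log2 fold change was -0.59. Its unadjusted limma p was under 0.05 in 3 of the 6 fits with a library left out. Col12a1 and Col16a1, which bind to the surface of fibrils, were the most abundant of the class with Col6a3. Col12a1 stood at 17759, 17107 and 16216 unchallenged and 16289, 17800 and 10754 challenged, and Col16a1 at 3905, 3450 and 3316 and then 3213, 3777 and 1998. In both, challenged replicate 3 alone was low.

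The 9 elastic fibre genes held no call in either test, with 5 fold changes positive and 4 negative (median 0.09). Fbn2, the fibrillin of early microfibrils, stood at 204, 251 and 328 unchallenged and 405, 331 and 326 challenged, so the groups overlapped only at unchallenged replicate 3 (log2 fold change 0.46 ± 0.19 SE, unadjusted p = 0.0429, limma adjusted p = 0.417). Without unchallenged replicate 1 the log2 fold change was 0.29 (unadjusted p = 0.127 in limma), and the unadjusted p was under 0.05 in 1 of the 6 fits with a library left out. Fbn1, the main fibrillin, stood at 10601, 11252 and 12418 and then 13608, 13040 and 10117; the gene Gm9913 on the other strand shares 20.1% of its exonic bases. Eln, the gene of elastin, had the largest absolute fold change of the class, and only challenged replicate 1 was high: it stood at 214, 198 and 319 and then 610.4, 192 and 312 (log2 fold change 0.48, 95% interval -0.47 to 1.42).

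Fbln2, a fibulin of basement membranes and elastic fibres, was the most abundant gene of the class by count, at 69754, 66408 and 52239 unchallenged and 49609, 58389 and 51825 challenged. Efemp1, whose mutation in humans causes an inherited macular dystrophy with deposits under the RPE, stood at 6759, 9190 and 8745 and then 9393, 8739 and 5801. The groups overlapped for both.

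Of the 4 remaining genes all had a negative fold change (median -0.25), and none was called in limma or in the authors' deposited table. Tnc, the gene of tenascin-C, an adhesion-modulating glycoprotein, stood at 118622, 73383 and 81036 unchallenged and 60941, 68828 and 43896 challenged. Challenged libraries were lower without overlap (log2 fold change -0.65 ± 0.23 SE, unadjusted p = 0.0273, limma adjusted p = 0.385). The log2 fold change was -0.44 without unchallenged replicate 1, -0.46 without challenged replicate 3 and -0.25 without both, its highest and lowest libraries. It was -0.37 without unchallenged replicates 1 and 3. The unadjusted limma p was under 0.05 in 4 of the 6 fits with a library left out. Fn1, the gene of fibronectin, stood at 207076, 180954 and 149064 unchallenged and 123434, 157654 and 163147 challenged, with overlap (log2 fold change -0.27, 95% interval -0.72 to 0.17). Sparc, a collagen-binding glycoprotein gene, stood at 91468, 99223 and 102384 and then 107180, 111451 and 74720, with overlap (log2 fold change -0.02, 95% interval -0.44 to 0.40). Postn, the periostin gene, ranged from 4180 to 5771 and from 3987 to 4299.

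Per kb of the longest annotated coding transcript, the order of levels was led by Sparc, at 42475 ± 2442 normalized counts per kb in unchallenged cultures (SD, n = 3). Fn1 at 21531 ± 3494 and Col8a1 at 19349 ± 2280 came next and did not differ beyond their spread, nor did Fbln2 at 13122 ± 1943 and Tnc at 12808 ± 3408 after them. Col1a1 followed at 6883 ± 1372 and Nid2 at 4565 ± 841. Lamb3 was the lowest at 3.52 ± 1.89, followed upward by Col9a1 at 5.04 ± 2.79 and Col22a1 at 6.12 ± 1.98. In challenged cultures Sparc was at 42515 ± 8734, and Hmcn2 at 9.26 ± 0.39 against 20.3 ± 1.14 unchallenged.

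**Figure D4:**
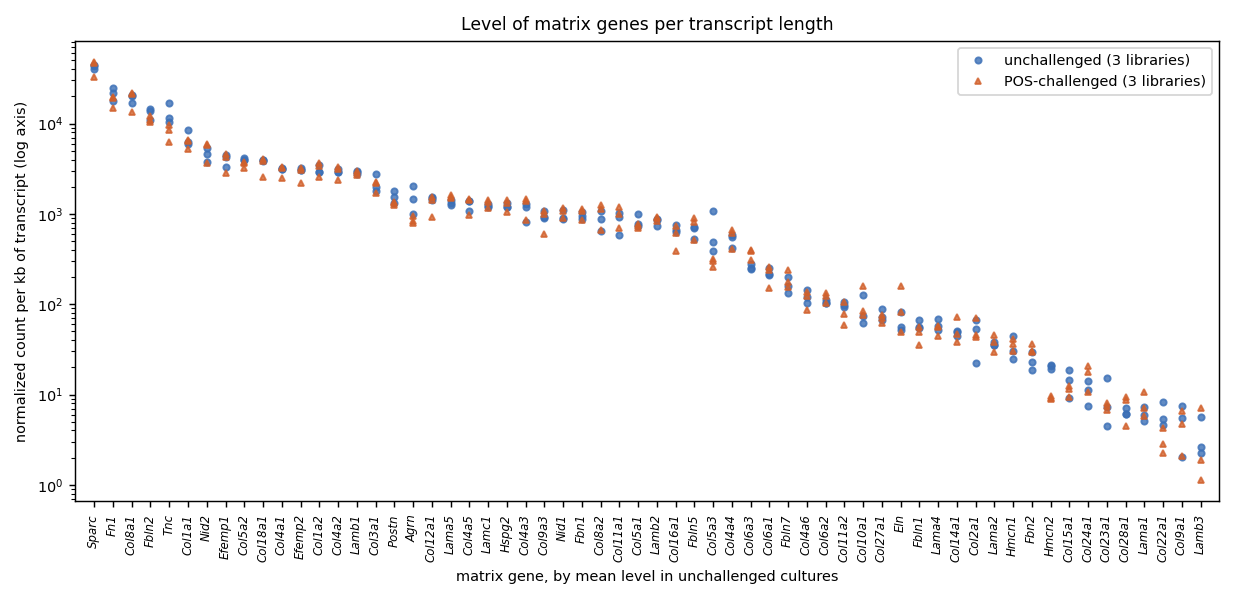
Normalized counts per kb of transcript (y axis, log scale) of 60 matrix genes, ordered by their mean in unchallenged cultures; each point is 1 library. Levels run from 42475 for Sparc to 3.52 for Lamb3, and for Hmcn2 the challenged points lie apart from the unchallenged ones.

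The matrix genes together took 3.33%, 3.16% and 3.04% of all normalized counts in unchallenged and 3.07%, 3.21% and 2.8% in challenged replicates 1, 2 and 3. Challenged replicate 3 was the lowest of the 6 libraries for 34 of the 61 genes (55.7%), while it was the lowest for 28.8% of all genes. It lay below both other challenged libraries for 47 of the 61, against 43.1% of all genes. Its median log2 ratio to the mean of those 2 libraries was -0.66 for the other collagens and -0.58 for the basement membrane and network collagens, but -0.26 for the laminin class. Unchallenged replicate 1 was the highest library for 17 (27.9%, against 20.5% of all genes), among them Agrn, Col5a3, Col1a1, Col3a1, Tnc and Fn1. Challenged replicates 1 and 2 were the highest for 22 and 13 (36.1% and 21.3%, against 14.8% and 9.76% of all genes). Without unchallenged replicate 1 and challenged replicate 3, a choice made after their values were seen, 43 of 61 fold changes were positive (median 0.08). Over all genes 50.1% were negative in that fit. Leaving out a challenged library in which most members were low raises their fold changes by construction. Hmcn2 and Col6a3 were called in limma there, among 47 of all 12556 genes. The cause of the differences between libraries was not tested.

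**Figure D5:**
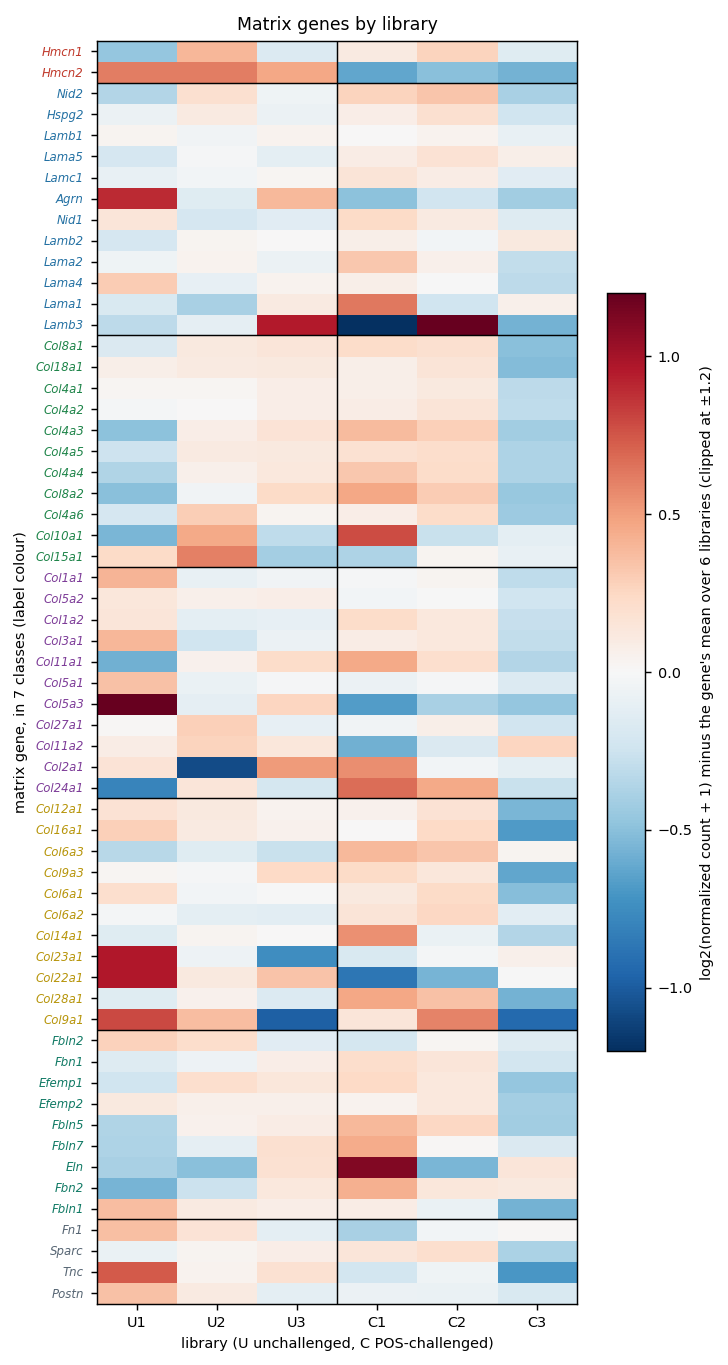
Deviation of log2(normalized count + 1) from the gene's mean over the 6 libraries (colour, clipped at ±1.2) for 60 matrix genes in 7 classes; U1 to U3 are unchallenged and C1 to C3 POS-challenged. Library C3 is blue across most collagens, U1 is red for Agrn, Col5a3 and Tnc, and Hmcn2 is red in all unchallenged and blue in all challenged libraries.

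Of 107 measured genes that make, join or bind the matrix, grouped in 4 lists by role, limma called 0 across all genes, where 3 were higher and 12 lower at an unadjusted p under 0.05 (2.8% and 11.2%, against 4.87% and 6.58% of all genes), edgeR's quasi-likelihood test also called 0, and the authors' deposited table listed 0 higher and 2 lower (against 0.871% and 1.68% of all genes). Those 2 were Itga2 and Spp1. Itga2, the alpha chain of a collagen and laminin receptor, stood at 254, 67.1 and 158 unchallenged and 47.2, 55.5 and 42.3 challenged (log2 fold change -1.51 ± 0.44 SE, limma adjusted p = 0.314; adjusted p = 0.00753 in the authors' deposited table). All challenged values were lower, and unchallenged replicates 1 and 3, with their high interferon-stimulated genes, were again the highest; their part was not tested. Without them the log2 fold change was -0.47. Spp1, the gene of osteopontin, stood at 290872, 194572 and 180151 and then 137392, 166396 and 107098 (log2 fold change -0.69, limma adjusted p = 0.385; adjusted p = 0.0499 in the authors' deposited table). The log2 fold change of Spp1 was -0.47 without unchallenged replicate 1, -0.52 without challenged replicate 3 and -0.53 without unchallenged replicates 1 and 3. It was -0.31 without unchallenged replicate 1 and challenged replicate 3, its highest unchallenged and its lowest challenged library. Leaving out such a pair, chosen after its values were seen, shrinks the difference by construction.

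Enzymes and chaperones of collagen maturation had 27 of 33 fold changes negative (81.8%, against 48.3% of all genes; median -0.13). Without challenged replicate 3, 17 of 33 were negative (51.5%, against 49.3% of all genes), with a median of -0.02. Leaving out unchallenged replicate 1 instead, 27 of 33 were negative (81.8%, against 51% of all genes), with a median of -0.095. With all libraries there were 0 higher and 3 lower at an unadjusted p under 0.05: Lox, P4ha2 and Plod2, named after their values were seen. Lox, which crosslinks collagen and elastin and was the most abundant of them, stood at 88811, 69338 and 71999 unchallenged and 52955, 66079 and 52687 challenged (log2 fold change -0.42 ± 0.15 SE, limma adjusted p = 0.379). The log2 fold change of Lox was -0.31 without unchallenged replicate 1, -0.37 without challenged replicate 3 and -0.26 without both. It was -0.285 without unchallenged replicates 1 and 3. Elastic fibre and microfibril genes had 6 positive and 7 negative of 13 (median -0.006), with Ltbp3, which stores latent TGF-beta, at 25339 to 28147 and 21221 to 30163. Without challenged replicate 3, 2 of these 13 were negative (15.4%, against 49.3% of all genes), with a median of 0.11. Proteoglycans and matricellular genes had 15 positive and 19 negative of 34 (median -0.06), with Thbs1, the thrombospondin gene, at 348595 to 392586 and 253428 to 394579. Matrix receptors had 9 positive and 18 negative of 27 (median -0.11), with the integrin beta chain gene Itgb1 at 60067 to 62440 and 46337 to 61036. Over all 107 genes 71 fold changes were negative (median -0.08), and without challenged replicate 3, 46 were (median 0.04). Leaving out unchallenged replicate 1 instead, 78 were negative (72.9%, against 51% of all genes, median -0.07). The median was -0.08 without unchallenged replicates 1 and 3.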

How the data were processed

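Poly(A) RNA was sequenced on a Genome Analyzer IIx, 1 library per replicate, per the labels' protocols. GSNAP, DESeq2 and mm10 are named, without versions, in the submitters' processing notes; annotation, counting tool and strand setting were not given in the sources. The deposited signal of each library is the authors' read count divided by a size factor (0.9014 to 1.103), and 100% of values were whole reads within 0.001. The authors also deposited log2 fold changes, a Wald score and p-values. Genes in the table had at least 87 reads over 6 libraries.

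Levels were tested with limma 3.58.1 in R 4.3.3 on log2(value + 1), which understates changes of low genes, with a trend, group as the only term, all 12556 genes and Benjamini-Hochberg adjustment at 0.05 (residual degrees of freedom 4, prior 3.22). A log scale was planned because the deposited values were expected to be scaled counts, which are not counts. Alternatives included edgeR 4.0.16 and DESeq2 1.42.0 on recovered reads. Scripts were tested on simulated counts. The chi-square per degree of freedom between replicates was 8.58 to 61.8, above sampling noise. Transcript lengths came from GENCODE, and coordinates and promoters from RefSeq, both on GRCm38.

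Genes named were both hemicentins, members called in limma or in the authors' deposited table or with an unadjusted p under 0.05, the 3 most abundant of each class and the one with the largest absolute fold change; partner chains, Lamc1, Lamb3, Postn and Col9a1 were added after their values were seen. Members and lists were chosen with earlier results of these data known. One of the 61 genes is counted in the totals, but its values are not reported here or plotted.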

Additional observations from a re-analysis of the deposited data

How the results depend on the processing

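Hmcn2 kept its direction in every alternative run. Its limma log2 fold change was -1.13 with the replicate number as a block (adjusted p = 0.224), -1.17 without unchallenged replicates 1 and 3 and -1.18 to -1.10 with each library left out in turn, and the call was lost in the first 2 and in 4 of the 6 leave-one-out fits. The labels do not say that a number marks a shared source, and same-numbered libraries correlated at -0.351, 0.172 and 0.173 after group means were removed. Members called lower were 1 in limma, 3 in the authors' deposited table and with DESeq2, 0 with the replicate block or without unchallenged replicates 1 and 3, and 0 to 1 with a library left out. Members called higher were 0 in limma, and 1 in the authors' deposited table, with DESeq2 and without unchallenged replicate 1 and challenged replicate 3 (chosen after seeing the data). The members' median ran from -0.13 to 0.12 with a library left out. Matrix assembly and receptor genes called were 0 in limma, 2 in the authors' deposited table, 3 with DESeq2 and 0 to 1 with a library left out. That 1 came from the fit without unchallenged replicate 2. DESeq2 and the authors called 329 and 308 of all genes and limma 12. In limma the total was 120 of all 12556 genes without unchallenged replicate 2, and 1 to 13 with any other library left out. It was 1 with the replicate block and 47 without unchallenged replicate 1 and challenged replicate 3. The cause of these changes was not tested, beyond the fewer libraries of the smaller fits.

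Some fold changes that no setting called changed sign. Not all were near 0 in the main limma fit, where Col16a1 was -0.294, Col12a1 -0.220, Col18a1 -0.198, Col1a1 -0.185 and Hmcn1 0.148. With quantile normalization Col4a1 was 0.011, Col8a1 0.044, Efemp1 0.015, Lamb1 0.092 and Sparc 0.060. Sparc was 0.004 with edgeR, and 0.001 with DESeq2 and for the authors. When unchallenged replicates 1 and 3 were left out, Col1a1 was 0.000, Hmcn1 -0.326, Hspg2 -0.099, Lamb1 0.028 and Nid2 -0.116. When unchallenged replicate 1 and challenged replicate 3 were left out, Col12a1 was 0.032, Col16a1 0.042, Col1a1 0.077, Col4a1 0.041, Col8a1 0.074, Efemp1 0.015, Lamb1 0.021 and Sparc 0.117. With each library left out in turn, log2 fold changes ran from -0.362 to 0.001 for Col12a1, -0.322 to 0.013 for Col18a1, -0.051 to 0.199 for Col1a2, -0.164 to 0.050 for Col4a1, -0.186 to 0.175 for Col8a1, -0.199 to 0.151 for Efemp1, -0.045 to 0.385 for Hmcn1, -0.069 to 0.146 for Hspg2, -0.054 to 0.009 for Lamb1 and -0.125 to 0.164 for Sparc.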
